A study of Mus musculus with 36 samples.

Results

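The genes described here are 36 genes of the synaptic vesicle cycle and of the scaffolds that face it across the synapse, out of 22154 genes in the mRNA table. They were taken by symbol from a list of genes with these functions. The rule uses no measured value, but the list was chosen with earlier results of these data known. All 36 were found, and all 36 passed the filter of a mean of at least 0.5 FPKM (fragments scaled to transcript length and to the size of the library) that left 13593 genes to test. The libraries were made from brain tissue of APP/PS1 mice and of wild-type (WT) mice, both of strain C57BL/6, at ages of 6 and 9 months. APP/PS1 mice express the mutant human genes named APP695swe and PS1-dE9, and WT mice carry neither. In the widely used mouse line of this name both transgenes are driven by the mouse prion protein promoter, which acts in many brain cell types. The labels name neither the promoter nor the brain region, and the extraction protocol speaks of retinas while every tissue label reads brain. Each of the 4 groups had 3 long RNA libraries. The labels do not tie the 3 libraries of a group to different animals. The p-values below thus reflect the scatter among these libraries alone, and that scatter may be technical.

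A nerve terminal stores neurotransmitter in vesicles, which transporters fill and synapsins tether. Vesicles dock at the active zone through Rab3 and its scaffold partners and are primed by Munc13 proteins. They then fuse with the membrane when synaptotagmins bind calcium and the SNARE proteins zip together. On the other side of the cleft, scaffolds of the Dlg and Shank families hold receptors in place, and neurexins and neuroligins join both membranes. Loss of synapses is a well-known feature of Alzheimer's disease, which the APP/PS1 mouse is used to model, and several of these genes serve as markers of synapse content. In RNA of bulk tissue, fewer cells of a type and less RNA per cell cannot be told apart.

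The deposited values are FPKM without counts, so the depth of the libraries is unknown. FPKM summed to between 292540 and 301778 per library, with 16757 to 17062 genes above 0. The 36 genes together held 1.68% to 1.85% of the sum. App lay at 969.9 to 1029 FPKM in the 6 APP/PS1 libraries and at 433 to 453 FPKM in the 6 WT libraries, so no library went against its genotype label. Photoreceptor and other retinal markers summed to 1.00 to 1.96 FPKM per library over 9 genes, of which 8 averaged under 0.5 FPKM, while 9 pan-neuronal markers summed to 1248 to 1411 FPKM. Tissue make-up varied among libraries. Choroid plexus markers (10 genes) summed to between 5.90 and 354 FPKM, and pituitary and hypothalamic hormone genes (7 genes) to between 11.97 and 315 FPKM. WT 1 of 6 months was lowest in choroid plexus markers and in thalamic markers.

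By their medians, the 36 genes were more abundant than all genes tested and varied less within groups. Their mean level over the 12 libraries ran from 8.31 FPKM for Syn3 to 841.7 FPKM for Snap25, with a median of 78.9 FPKM, against 8.87 FPKM for all genes tested. The median coefficient of variation within groups was 5.04%, against 7.53% for all genes tested. The genes compared were not matched for level, here or where shares of all genes are given below. Expression therefore spanned a wide range between the genes but a narrow one between libraries.

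Among the vesicle membrane proteins and synapsins, Syp (synaptophysin, an abundant integral vesicle protein) was the second of the 36 by level. It lay at 394, 371 and 366 FPKM in APP/PS1 and at 384, 386 and 389 FPKM in WT at 6 months. At 9 months it lay at 389.6, 383 and 365 FPKM in APP/PS1 and at 399, 380.5 and 372 FPKM in WT. The groups overlapped at both ages. The glycoproteins Sv2a and Sv2b averaged 125 and 112 FPKM over the 12 libraries. The synapsins, phosphoproteins that tie vesicles to each other and to actin, were unequal. Syn1 averaged 158 FPKM and Syn2 129 FPKM, against 8.31 FPKM for Syn3.

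Of the vesicular glutamate transporters, Slc17a7 (VGLUT1, the form of cortical and hippocampal terminals) averaged 339 FPKM and Slc17a6 (VGLUT2, the form of thalamic and brainstem neurons) 17.0 FPKM. Among the synaptotagmins, Syt1 (the fast calcium sensor of most forebrain terminals) averaged 194 FPKM and Syt11, a member that does not bind calcium, 147 FPKM. Syt4 averaged 73.7 FPKM, Syt5 56.0 FPKM, Syt7 (a slow, high-affinity sensor) 50.1 FPKM and Syt2 (a fast sensor more usual in hindbrain terminals) 14.9 FPKM.

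Of the SNAREs, Snap25 was the highest of the 36. Snap25 lay at 846, 859.7 and 823 FPKM in APP/PS1 and at 847, 785 and 811 FPKM in WT at 6 months, and at 868, 830.1 and 839 FPKM in APP/PS1 and 871, 862 and 859.9 FPKM in WT at 9 months. Its lowest and highest library differed 1.11-fold. Vamp2, its vesicle partner, averaged 376 FPKM, Vamp1 46.4 FPKM and Stx1a (syntaxin 1A of the plasma membrane) 54.9 FPKM. The complexins, which clamp and promote fusion, averaged 201 FPKM for Cplx1 and 243 FPKM for Cplx2. Nsf, the ATPase that takes spent SNARE complexes apart, averaged 233 FPKM.

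At the active zone, the small GTPase Rab3a averaged 262 FPKM. Its effectors Rims1 and Rims2 averaged 70.1 and 29.5 FPKM, the priming factor Unc13a (Munc13-1) 36.7 FPKM, and the giant scaffolds Bsn (bassoon) and Pclo (piccolo) 83.0 and 39.4 FPKM. On the postsynaptic side, the kinase subunit Camk2a averaged 342 FPKM, Dlg4 (PSD-95) 169 FPKM and Dlg2 (PSD-93) 74.7 FPKM. The Shank scaffolds averaged 147 FPKM for Shank1, 40.3 FPKM for Shank2 and 51.1 FPKM for Shank3. Below, Camk2a is counted with these Dlg and Shank genes in the list of 6 postsynaptic scaffolds, although it is a kinase subunit. Of the adhesion genes, Nrxn3 averaged 48.9 FPKM, Nlgn1 (of excitatory synapses) 18.5 FPKM and Nlgn2 (of inhibitory synapses) 64.6 FPKM.

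**Figure D1:**
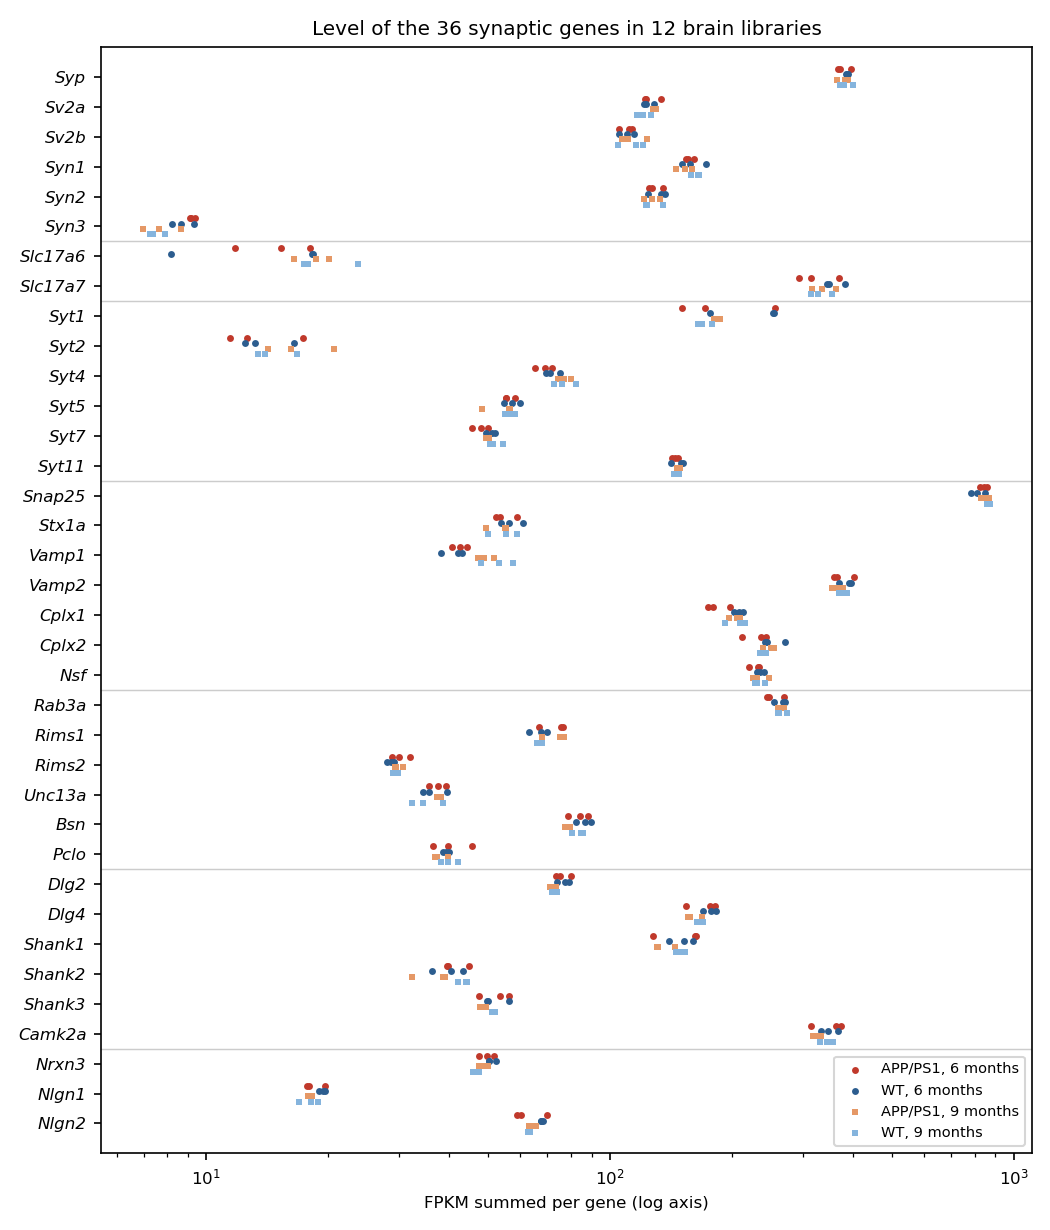
Level of the 36 genes in each of the 12 libraries, in FPKM summed per gene on a log axis, with APP/PS1 and WT at 6 months as circles and at 9 months as squares, and grey lines between functional roles. The points of a gene lie close together, from Syn3 near 8.31 FPKM to Snap25 near 841.7 FPKM, and spread most for Slc17a6, Syt1 and Syt2.

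Promoter windows of 300 bases, from 250 before to 50 after the annotated start, were matched in RefSeq (build GRCm38.p6) for 26 of the 36 genes, in 41 windows. The genes without a window were Camk2a, Rims2, Shank1, Shank2, Snap25, Syn3, Syt4, Syt5, Syt7 and Vamp2. The windows had a median GC content of 59.0%, against 52.67% in all 32851 windows. A GC box (GGGGCGGGG, searched on both strands) was found in 26.8% of the windows of these genes and in 11.4% of all windows, and the EGR site (GCGGGGGCG) in 7.32% and 2.91%. The RE1 element is bound by REST, a repressor of neuronal genes. Its left part (TTCAGCACC) was found in 3 genes, Nlgn1, Syn1 and Unc13a. It was present in 7.32% of these windows and in 0.371% of all windows. The CRE (TGACGTCA), the site of CREB, was found in Syn1 and in 1.79% of all windows. A match is a description of the letters, not evidence of a bound factor. The window of Cplx1 is shown because Cplx1 had the smallest p of the 36 between genotypes at 6 months, that of Vamp1 because it had the smallest p between ages, and that of Syn1 because it holds both a CRE and the RE1 part. Capitals mark the EGR site in Cplx1 and the RE1 part and the CRE in Syn1, and Vamp1 held none of these motifs. No matches overlapped in these windows.
Cplx1 (chr5:108549978-108550277, minus strand): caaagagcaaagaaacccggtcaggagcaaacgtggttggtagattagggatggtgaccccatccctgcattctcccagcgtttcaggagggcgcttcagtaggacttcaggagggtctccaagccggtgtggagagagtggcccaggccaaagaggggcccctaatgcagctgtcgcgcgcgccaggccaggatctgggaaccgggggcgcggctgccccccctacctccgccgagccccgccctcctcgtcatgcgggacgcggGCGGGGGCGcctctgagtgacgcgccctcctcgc
Vamp1 (chr6:125215331-125215630, plus strand): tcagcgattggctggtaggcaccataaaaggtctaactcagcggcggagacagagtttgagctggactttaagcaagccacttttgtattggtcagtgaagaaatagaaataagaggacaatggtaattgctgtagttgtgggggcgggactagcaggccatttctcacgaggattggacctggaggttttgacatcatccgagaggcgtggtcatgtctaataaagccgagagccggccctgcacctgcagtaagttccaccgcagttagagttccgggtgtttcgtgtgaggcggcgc
Syn1 (chrX:20920869-20921168, minus strand): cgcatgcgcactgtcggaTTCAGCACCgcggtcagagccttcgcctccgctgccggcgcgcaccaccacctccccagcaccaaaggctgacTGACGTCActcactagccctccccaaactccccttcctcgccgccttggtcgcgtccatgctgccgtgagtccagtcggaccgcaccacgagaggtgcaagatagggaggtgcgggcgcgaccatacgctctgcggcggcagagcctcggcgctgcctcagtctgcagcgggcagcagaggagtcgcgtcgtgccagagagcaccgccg

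The first comparison asked how the genotypes differed at 6 months. No gene of the 36 passed the threshold (limma, Benjamini-Hochberg adjusted p under 0.05 over all genes tested), where 0.0441% of all genes did. At an unadjusted p under 0.05 there were 2 of the 36, both lower in APP/PS1, against 11.7% of all genes. The log2 change was below 0 in 24 of the 36 and in 53.9% of all genes. The median change was -0.03 for the 36 and -0.01 for all genes, on the log2(FPKM + 0.25) scale used throughout. For 31 of the 36 the 95% interval of the change lay within 1.2-fold either way, and for 34 within 1.5-fold, against 46.2% and 87.6% of all genes.

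The complexins had the smallest p at 6 months. Cplx1 lay at 198, 179.9 and 175 FPKM in APP/PS1 and at 208, 202 and 213 FPKM in WT. All 3 APP/PS1 libraries were below all 3 WT libraries, and Cplx1 was the only one of the 36 whose groups did not overlap, where 15.8% of all genes had such groups (6.7% higher and 9.14% lower in APP/PS1). Its log2 change was -0.18 (SE 0.06, limma adjusted p = 0.289). Cplx2 lay at 244, 213 and 237 FPKM in APP/PS1 and at 272, 245 and 242 FPKM in WT. The groups of Cplx2 overlapped, with APP/PS1 2 lowest and WT 1 highest (log2 change -0.13, limma adjusted p = 0.422, and -0.07 without APP/PS1 2).

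All 6 synaptotagmins had a log2 change below 0 at 6 months, with a median of -0.05 and none called. Syt7 lay at 47.9, 45.5 and 49.8 FPKM in APP/PS1 and at 49.3, 52.0 and 51.1 FPKM in WT (log2 change -0.09, limma adjusted p = 0.449, and -0.06 without APP/PS1 2). Only the highest APP/PS1 library reached into the WT range. Syt1 had the largest change of the 36 in size, and the widest scatter of the highly expressed genes. It lay at 172, 151 and 256 FPKM in APP/PS1 and at 254, 177 and 253 FPKM in WT. Libraries of both genotypes fell at about the lower and the upper level, and the log2 change of -0.26 (limma adjusted p = 0.605) became -0.48 without APP/PS1 3 and -0.10 without APP/PS1 2.

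The adhesion genes Nrxn3, Nlgn1 and Nlgn2 also lay below 0 at 6 months, with a median log2 change of -0.07 and none called. Nlgn2 lay at 69.8, 58.9 and 60.2 FPKM in APP/PS1 and at 67.6, 68.3 and 67.4 FPKM in WT. The WT libraries were nearly equal, and APP/PS1 libraries lay on both sides of them (log2 change -0.11, limma adjusted p = 0.475). Without APP/PS1 2 the change was -0.06, and without APP/PS1 1 it was -0.19 (limma adjusted p = 0.0898). The postsynaptic scaffolds had 3 genes above and 3 below 0, with a median change of -0.000952. At the active zone 4 of 6 were above 0, among them Rims1, described with the comparison over both ages. The remaining genes had log2 changes between -0.14 (Slc17a7) and 0.08 (Slc17a6).

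Markers of brain regions and cell types also differed in mean at this age, with none called. All 10 choroid plexus markers (median log2 change 1.02) and 7 of 8 thalamic markers (median 0.15) were higher in mean in APP/PS1, with overlapping groups. Choroid plexus sums were 102, 332 and 304 FPKM in APP/PS1 and 5.90, 295 and 13.2 FPKM in WT. Thalamic sums were 52.8, 73.6 and 77.6 FPKM in APP/PS1 and 33.2, 82.1 and 75.7 FPKM in WT, so the low WT mean came from WT 1. The 9 striatal markers summed to 369 to 393 FPKM in APP/PS1 and to 437 to 492 FPKM in WT of 6 months, with all 9 lower in mean and 5 without overlap. The 6 astrocyte markers summed to 719 to 766 FPKM in APP/PS1 and 626 to 668 FPKM in WT. The 9 pan-neuronal markers summed to 1260 to 1307 FPKM in APP/PS1 and 1269 to 1353 FPKM in WT. None of these markers was at 0 in any library, and their part in the values of the complexins and synaptotagmins was not tested.

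**Figure D2:**
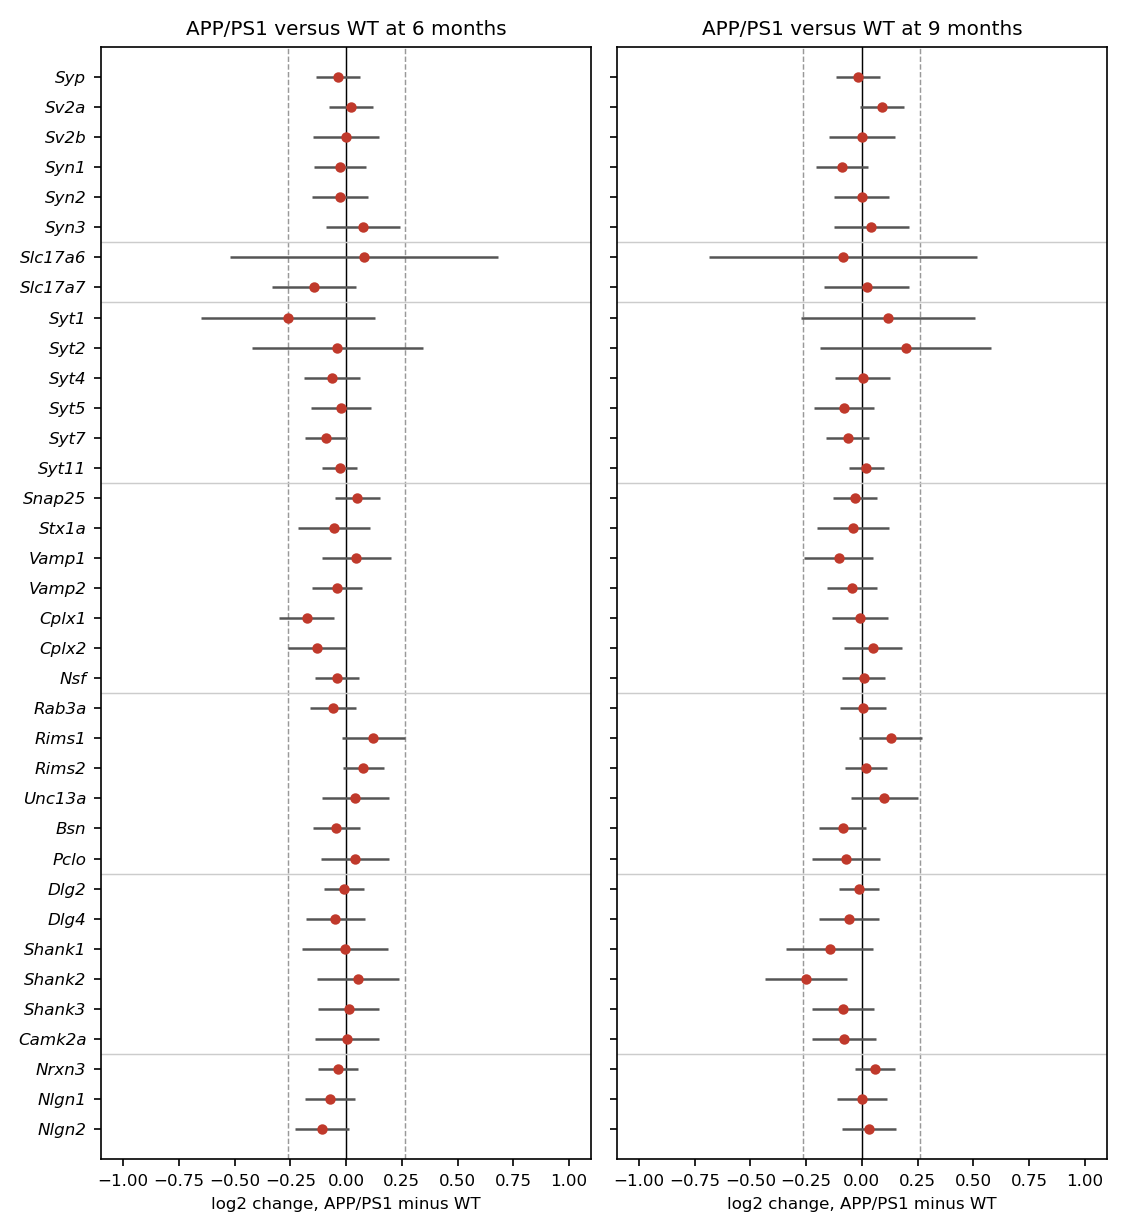
Log2 change of each of the 36 genes, APP/PS1 minus WT, at 6 months (left) and 9 months (right), as points with 95% intervals from limma, and dashed lines at 1.2-fold either way. Intervals of 31 genes at 6 months and 30 at 9 months lie between the dashed lines, and those of Slc17a6, Syt1 and Syt2 are the widest.

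At 9 months again no gene of the 36 passed the threshold, where 0.0956% of all genes did. At an unadjusted p under 0.05 there was 1 of the 36, Shank2, against 9.73% of all genes. The change was below 0 in 20 of the 36 and in 46.6% of all genes, with a median of -0.00502 for the 36 and 0.01 for all genes on the log2 scale. The 95% interval lay within 1.2-fold for 30 of the 36 and within 1.5-fold for 35, against 48.2% and 87.7% of all genes. Groups did not overlap for 8 of the 36, with 3 higher and 5 lower in APP/PS1, beside 17.3% of all genes (9.28% higher and 8% lower).

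The postsynaptic scaffolds, with Camk2a counted among them, had all 6 log2 changes below 0 at 9 months, with a median of -0.08 and none called. Shank2, a scaffold that links glutamate receptor complexes to the cytoskeleton, lay at 39.1, 38.5 and 32.3 FPKM in APP/PS1 and at 44.1, 42.0 and 44.2 FPKM in WT. All APP/PS1 libraries were below all WT libraries, and APP/PS1 3 was the lowest of the 12. The log2 change was -0.25 (SE 0.08, limma adjusted p = 0.373), and -0.16 without APP/PS1 3. Shank1 and Shank3 also had groups without overlap. Shank1 averaged 136 ± 7.86 FPKM in APP/PS1 and 149.8 ± 3.82 FPKM in WT (SD, n = 3 each). Shank3 averaged 48.5 ± 0.835 FPKM in APP/PS1 and 51.4 ± 0.414 FPKM in WT. The groups of Dlg2, Dlg4 and Camk2a overlapped, with log2 changes of -0.01, -0.06 and -0.08.

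At the active zone the genes parted in direction at 9 months. Rims1, which tethers vesicles and calcium channels, lay at 77.1, 68.0 and 75.4 FPKM in APP/PS1 and at 67.6, 65.9 and 67.8 FPKM in WT. All APP/PS1 libraries were above all WT libraries, APP/PS1 2 by a small margin (log2 change 0.13, limma adjusted p = 0.546, and 0.09 without APP/PS1 1). Bsn lay at 79.8, 78.6 and 77.5 FPKM in APP/PS1 and at 84.6, 80.5 and 85.6 FPKM in WT. The APP/PS1 libraries were again all on one side, below WT (log2 change -0.09, limma adjusted p = 0.603). Rab3a, the upstream GTPase, had a log2 change of 0.00381 with a 95% interval from -0.10 to 0.11.

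Sv2a, the vesicle glycoprotein that levetiracetam binds and that PET tracers of synapse density target, lay at 128, 129 and 129.8 FPKM in APP/PS1 and at 121, 126 and 116 FPKM in WT. The APP/PS1 libraries were nearly equal and all above WT (log2 change 0.09, limma adjusted p = 0.548). Syt1 and Syt7 were the other genes without overlap, on opposite sides. Syt1 lay at 187, 187 and 181 FPKM in APP/PS1 and at 179, 169 and 165 FPKM in WT, and Syt7 at 49.7, 49.4 and 50.2 FPKM in APP/PS1 and at 54.4, 50.4 and 51.4 FPKM in WT. Syt2 had the second largest change in size, 0.20 on the log2 scale (limma adjusted p = 0.778), from 20.8, 14.2 and 16.2 FPKM in APP/PS1 and 13.5, 16.7 and 14.0 FPKM in WT. APP/PS1 1 stood above the rest, and without it the change was 0.05. A minor transcript of Syt2, ENSMUST00000187725, lay at 6.73 FPKM in that library. It was also raised at 6 months in APP/PS1 3, at 5.72 FPKM, and in WT 1, at 4.24 FPKM. In every other library it was at or below 0.523 FPKM. The complexins, lowest in APP/PS1 at 6 months, had log2 changes of -0.00908 (Cplx1) and 0.05 (Cplx2) at 9 months.

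The SNAREs Snap25, Stx1a, Vamp1 and Vamp2 had log2 changes between -0.10 and -0.03 at 9 months, and the adhesion genes between -0.000135 and 0.06, with overlapping groups in each. Beside these values, thalamic markers (8 genes) summed to 69.4 to 78.6 FPKM in APP/PS1 and 78.7 to 88.8 FPKM in WT of 9 months. Microglial markers (6 genes) summed to 92.4 to 112 FPKM in APP/PS1 and 78.9 to 88.0 FPKM in WT. Of the 6 astrocyte markers, 1 was called higher in APP/PS1 (log2 change 1.06, limma adjusted p = 0.0138), and 3 were lower in mean. All 10 choroid plexus markers were lower in mean in APP/PS1 (median log2 change -0.79), 4 of them without overlap. All 6 oligodendrocyte markers were higher in mean (median 0.14). Striatal markers summed to 366 to 421 FPKM in APP/PS1 and 355 to 386 FPKM in WT, the opposite order to 6 months. None of these markers was at 0 in any library, and their part in the values of the scaffold and active zone genes was not tested.

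**Figure D3:**
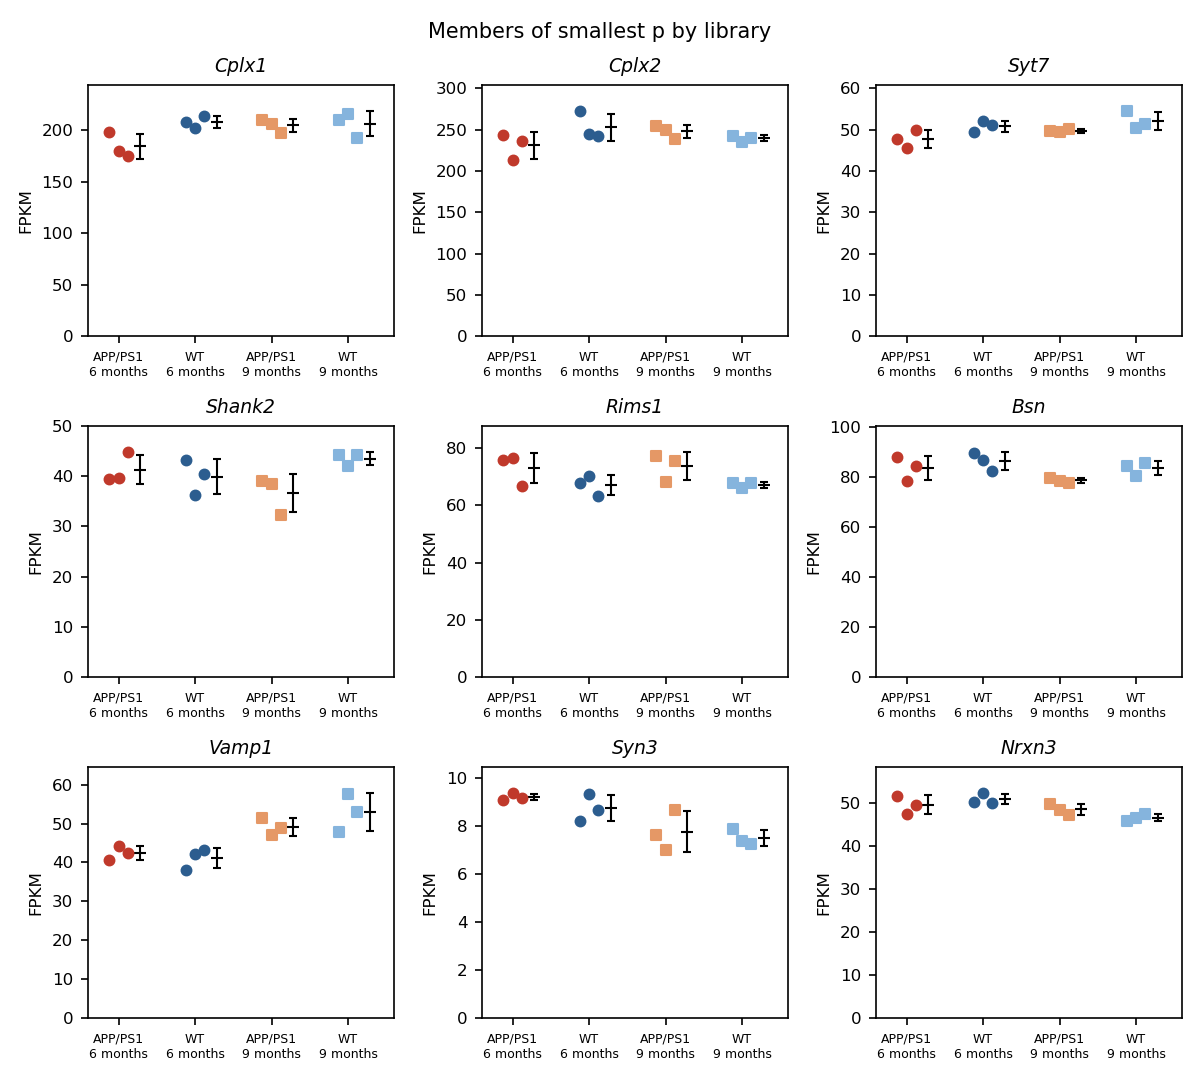
FPKM per library of 9 genes among those of smallest p in a comparison, with APP/PS1 left of WT at each age. The mean and SD of 3 libraries are a black bar at the right of each group. Sv2a, Nlgn2 and Syt4, also among the genes of smallest p, are not shown. Cplx1 at 6 months and Shank2 at 9 months lie lower in APP/PS1 than in WT, Rims1 has the higher APP/PS1 mean at both ages, and Vamp1 lies higher at 9 than at 6 months.

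Over both ages together, no gene of the 36 passed the threshold, where 0.118% of all genes did, and 3 of the 36 had an unadjusted p under 0.05, against 10.4% of all genes. The change was below 0 in 27 of the 36 and in 50.6% of all genes, with medians of -0.03 and -0.00119 on the log2 scale. The interval lay within 1.2-fold for 33 and within 1.5-fold for all 36, against 68.8% and 94.7% of all genes. Rims1 had the smallest p. At 6 months it lay at 75.6, 76.3 and 66.7 FPKM in APP/PS1 and at 67.6, 70.0 and 63.1 FPKM in WT, with APP/PS1 3 inside the WT range. Its change over both ages was 0.13 on the log2 scale (SE 0.05, limma adjusted p = 0.389), or 1.09-fold with a 95% interval from 1.02 to 1.17. Syt7 was lower in APP/PS1 over both ages, by a log2 change of -0.08 (limma adjusted p = 0.424).

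The genotype difference was also compared between the ages. None of the 36 passed the threshold for a difference between the difference at 9 months and that at 6 months, where 0.00736% of all genes did, and 1 of the 36 had an unadjusted p under 0.05, against 11.3% of all genes. That gene was Shank2, with a difference of -0.30 on the log2 scale (limma adjusted p = 0.38, and -0.21 without APP/PS1 3 of 9 months). Cplx2 followed with 0.18 (limma adjusted p = 0.447) and Cplx1 with 0.17 (limma adjusted p = 0.454). All 6 postsynaptic scaffolds had a difference below 0, with a median of -0.09, and all 3 adhesion genes one above 0, with a median of 0.10. The difference was below 0 in 16 of the 36 and in 44.7% of all genes. The intervals were wide, with 21 of the 36 within 1.2-fold and 33 within 1.5-fold, against 23.6% and 73.8% of all genes.

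Age was compared within each genotype. In APP/PS1 mice, none of the 36 passed the threshold between 9 and 6 months, where 0% of all genes did, and 4 of the 36 had an unadjusted p under 0.05, against 13.1% of all genes. In WT mice none passed, where 0.0441% of all genes did, and 4 had an unadjusted p under 0.05, against 10.3% of all genes. Largest in size in WT were the log2 changes of Slc17a6 (0.47) and Syt1 (-0.40, limma adjusted p = 0.477), both with overlapping groups. The log2 change was below 0 in 18 of the 36 in APP/PS1 and in 23 in WT, against 44.3% and 51.4% of all genes, and the medians of the 36 were -0.01 in both genotypes. In APP/PS1 the 95% interval lay within 1.2-fold for 27 of the 36 and within 1.5-fold for 34, against 45.3% and 87.4% of all genes. In WT it lay within 1.2-fold for 29 and within 1.5-fold for 34, against 47.7% and 87.1%. Groups did not overlap for 2 higher and 2 lower genes in APP/PS1, where 10.8% of all genes were higher and 6.73% lower in this way (17.6% in all). In WT there were 2 higher and 4 lower genes, where 8.55% of all genes were higher and 9.17% lower (17.7% in all).

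Vamp1, the synaptobrevin of fast-firing and of brainstem and spinal neurons, had the smallest p of the 36 in any comparison. It lay at 47.9, 57.6 and 53.1 FPKM in WT of 9 months and at 38.1, 42.1 and 43.1 FPKM in WT of 6 months. In APP/PS1 it lay at 51.5, 47.1 and 48.8 FPKM at 9 months and at 40.6, 44.2 and 42.4 FPKM at 6 months. Every library of 9 months was above every library of 6 months of the same genotype. The log2 change from age was 0.36 in WT (SE 0.07, limma adjusted p = 0.148), or 1.28-fold with a 95% interval from 1.15 to 1.43, and 0.21 in APP/PS1 (limma adjusted p = 0.25). The difference between these effects had a log2 value of -0.15 (limma adjusted p = 0.611).

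Regional markers differed with age as well, with none called. In WT, all 9 striatal markers were lower in mean at 9 than at 6 months, 8 of them without overlap (median log2 change -0.30). All 8 thalamic markers were higher in mean (median 0.53), as were all 10 choroid plexus markers (median 1.40). The WT libraries of 6 months are shared with the genotype comparison at 6 months. Among them WT 1 had the lowest sum of all libraries in both lists. In APP/PS1, 7 of 9 striatal markers (median 0.08) and 7 of 8 thalamic markers (median 0.12) were higher in mean at 9 months, and 9 of 10 choroid plexus markers were lower (median -0.38). None of these markers was at 0 in any library. Hindbrain markers (10 genes, of which 1 passed the filter, with Hoxa3 and Hoxc4 at 0 in every library and 9 genes averaging under 0.5 FPKM) summed to 1.36 to 3.18 FPKM in WT of 9 months and to 0.634 to 1.59 FPKM in WT of 6 months. In APP/PS1 they summed to 1.78 to 1.95 FPKM at 9 months and 0.780 to 1.44 FPKM at 6 months. WT 2 of 9 months was highest in these markers, in Vamp1 and in Slc17a6. Without it the change of Vamp1 in WT was 0.30 (limma adjusted p = 0.351), and the part of the regional markers in the age values of Vamp1, Syn3, Syt4 and the adhesion genes was not tested.

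Syn3, a synapsin also known from early neuronal development, lay at 7.64, 6.99 and 8.67 FPKM in APP/PS1 of 9 months and at 9.11, 9.36 and 9.19 FPKM in APP/PS1 of 6 months. In WT it lay at 7.90, 7.38 and 7.24 FPKM at 9 months and at 8.23, 9.33 and 8.68 FPKM at 6 months. The ages did not overlap in either genotype. The log2 change was -0.25 in APP/PS1 (limma adjusted p = 0.231) and -0.21 in WT (limma adjusted p = 0.381). Syt4, an activity-regulated synaptotagmin of dense-core vesicles, lay at 76.9, 80.2 and 74.4 FPKM in APP/PS1 of 9 months and at 65.3, 71.8 and 69.0 FPKM in APP/PS1 of 6 months. These did not overlap (log2 change 0.17, limma adjusted p = 0.25), while in WT the ages overlapped (0.10, limma adjusted p = 0.564).

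All 3 adhesion genes were lower in WT of 9 than of 6 months without overlap. Nrxn3, a presynaptic neurexin, lay at 45.9, 46.4 and 47.4 FPKM in WT of 9 months and at 50.2, 52.2 and 50.1 FPKM in WT of 6 months. Its log2 change was -0.13 in WT (limma adjusted p = 0.34) and -0.03 in APP/PS1, where the ages overlapped. Nlgn1 and Nlgn2 had log2 changes of -0.11 and -0.10 in WT. Snap25, in contrast, was higher in WT of 9 months without overlap (log2 change 0.09, limma adjusted p = 0.535). In APP/PS1 all 6 postsynaptic scaffolds were below 0 between the ages, with a median log2 change of -0.10. In the same comparison all 6 oligodendrocyte markers were higher in mean at 9 months (median 0.17), 5 of them without overlap. Of the 9 pan-neuronal markers, 8 were higher and 1 lower (median 0.08). None of these markers was called, and their part in the values of the scaffolds was not tested. The APP/PS1 libraries of 9 months are shared between the age comparison in APP/PS1 and the comparison of genotypes at 9 months. For the adhesion genes, WT of 6 months had the highest mean of the 4 groups in each of the 3 genes. Its libraries are shared between the age comparison in WT, the genotype comparison at 6 months and the difference between the genotype effects.

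The glutamate transporters differed in how steady they were. Slc17a6 had the widest scatter of the 36, with a coefficient of variation within groups of 22.8%, against 7.99% for Slc17a7. At 6 months Slc17a6 lay at 11.8, 18.1 and 15.3 FPKM in APP/PS1 and at 8.17, 18.4 and 18.3 FPKM in WT. At 9 months it lay at 16.5, 18.7 and 20.1 FPKM in APP/PS1 and at 17.5, 23.8 and 17.8 FPKM in WT. WT 1 and APP/PS1 1 of 6 months were the lowest of the 12. The 8 thalamic markers were lowest in the same libraries, with sums of 33.2 FPKM in WT 1 and 52.8 FPKM in APP/PS1 1, against 69.4 to 88.8 FPKM in the other 10 libraries. Slc17a7 was highest in these libraries, at 383 FPKM in WT 1 and 369.8 FPKM in APP/PS1 1. How much tissue make-up contributed was not tested.

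**Figure D4:**
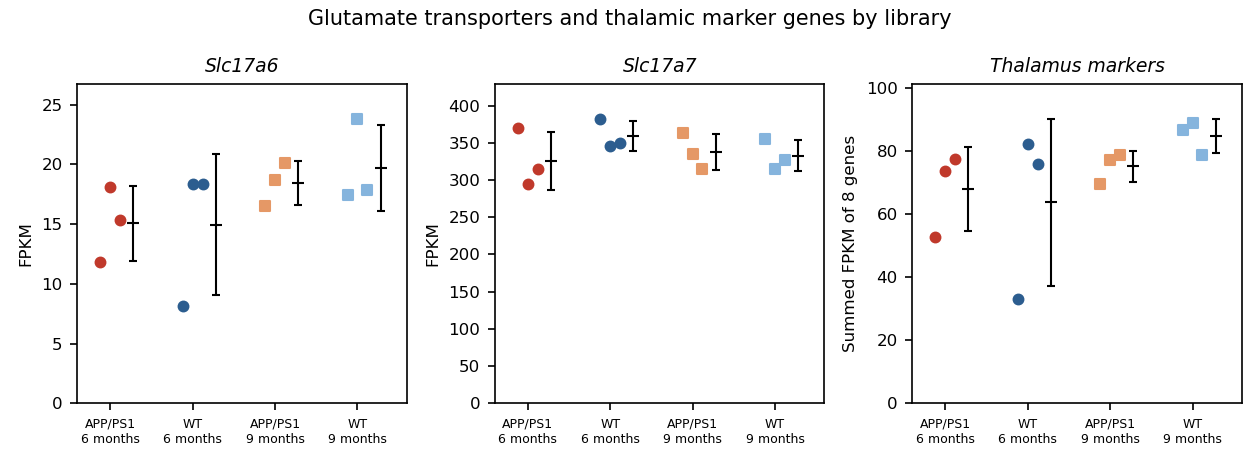
FPKM per library of Slc17a6 and Slc17a7 and the summed FPKM of 8 thalamic markers, with APP/PS1 left of WT at each age and the mean and SD of 3 libraries at the right of each group. WT 1 of 6 months is lowest in Slc17a6 at 8.17 FPKM and in the thalamic sum at 33.2 FPKM, and highest in Slc17a7 at 383 FPKM.

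The table lists transcripts, so the genes could be followed by isoform. The 36 genes had 107 listed transcripts, of which 94 passed the filter. A single transcript was listed for 7 genes, and of the 29 others 9 had a leading transcript with at least 90% of the gene's FPKM on average. None of the 94 was called between genotypes at 6 months, where 0.0448% of all 22322 transcripts were, or at 9 months, where 0.0627% were. At an unadjusted p under 0.05 there were 5 at 6 months and 2 at 9 months, against 8.66% and 7.02% of all transcripts. Groups did not overlap for 9 and 8 of them, against 13.9% of all transcripts at each age.

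The leading transcript of Rims1 (ENSMUST00000097808), singled out after its values were seen, was higher in every APP/PS1 library than in every WT library of the same age. At 6 months it lay at 30.5, 31.4 and 33.0 FPKM in APP/PS1 and at 27.8, 29.2 and 24.9 FPKM in WT. At 9 months it lay at 31.1, 34.7 and 31.4 FPKM in APP/PS1 and at 26.8, 28.1 and 26.9 FPKM in WT. Its log2 change over both ages was 0.23 (SE 0.05, limma adjusted p = 0.231), and the changes at 6 and 9 months were 0.21 and 0.25 (limma adjusted p = 0.413 and 0.461).

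In several genes the deposited FPKM moved between transcripts of a gene from library to library. The leading transcript of Nlgn2 held from 18.5% to 87.8% of the gene, although the sum ran from 58.9 to 69.8 FPKM. ENSMUST00000056484 of Nlgn2 lay at 53.6, 33.2 and 8.12 FPKM in APP/PS1 and at 53.0, 51.3 and 21.0 FPKM in WT at 6 months. At 9 months it lay at 16.02, 6.99 and 12.4 FPKM in APP/PS1 and at 3.29, 15.01 and 15.99 FPKM in WT. The split therefore differed within groups as well as between ages. The leading share ran from 32.1% to 77.5% in Syt7, whose sum ran from 45.5 to 54.4 FPKM. It ran from 23.5% to 90.5% in Syt1, whose sum also varied, from 151 to 256 FPKM.

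FPKM of Shank2 also moved between transcripts at both ages. The leading transcript, ENSMUST00000097929, held 92.3% of the gene in APP/PS1 1 of 6 months, where the gene's sum was 39.5 FPKM. It held 63.3% to 69.6% in the other libraries of 6 months. At 9 months it lay at 28.2, 29.9 and 9.70 FPKM in APP/PS1 and at 31.1, 30.8 and 30.6 FPKM in WT. The low APP/PS1 3 was the library in which ENSMUST00000105902 of Shank2 was highest, at 20.4 FPKM, and in which the gene's sum was lowest. The part of how fragments were assigned to transcripts in the values of Shank2 and Syt2 was not tested. Values of single transcripts of Nlgn2, Syt7, Syt1 and Shank2 were less steady than their sums.

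**Figure D5:**
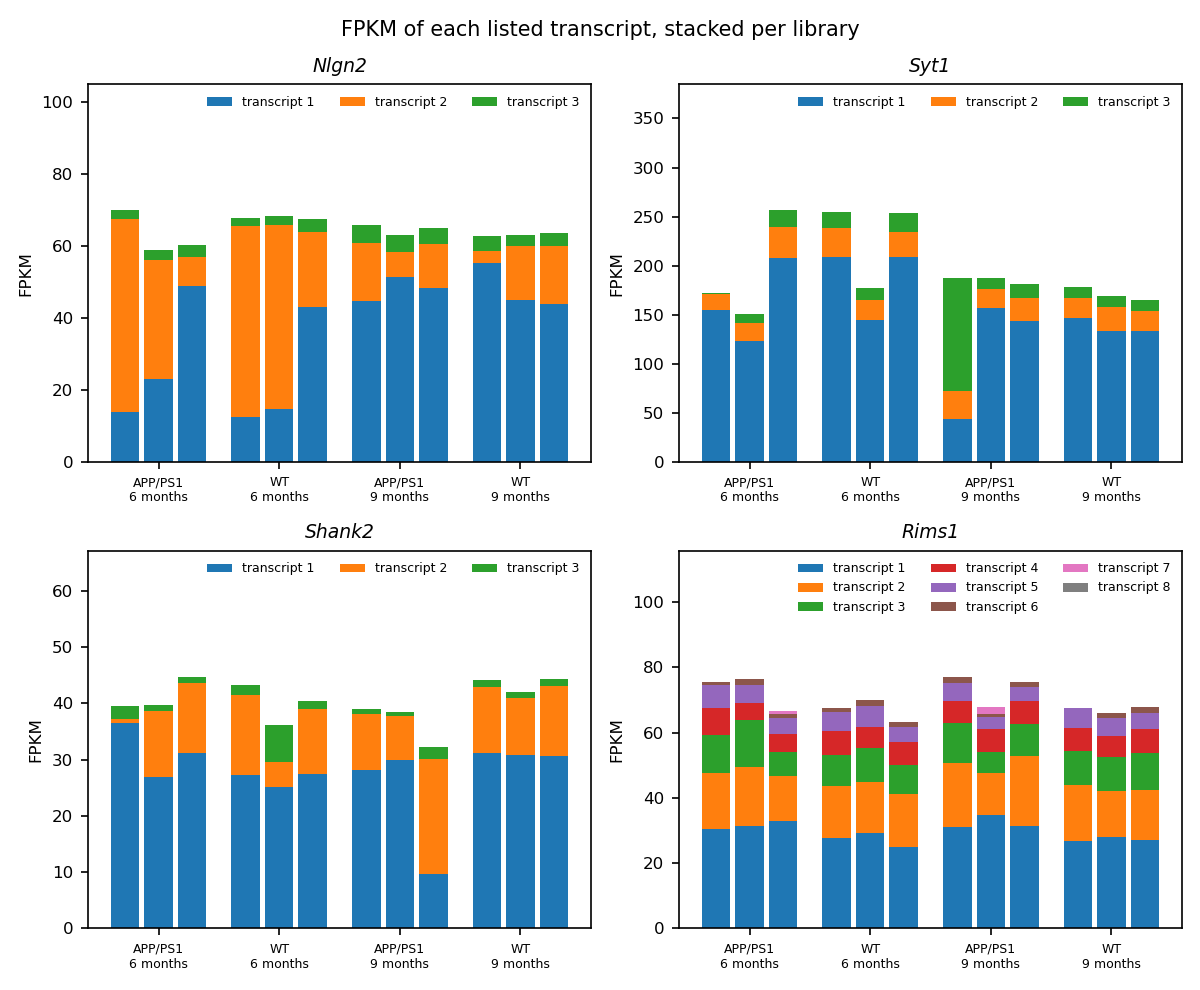
FPKM of each listed transcript of Nlgn2, Syt1, Shank2 and Rims1, stacked per library, with APP/PS1 left of WT at each age and transcripts numbered by mean level. The split between transcripts of Nlgn2 and Shank2 varies between libraries of the same group, and the leading transcript of Rims1 lies between 24.9 and 34.7 FPKM in all 12 libraries.

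A further 105 genes of the same machinery were followed, from lists chosen with earlier results of these data known, and all passed the filter. None was called in any of the 6 comparisons. At 6 months 21 of the 105 had an unadjusted p under 0.05, with 6 higher and 15 lower in APP/PS1, and at 9 months 10 had, with 4 higher and 6 lower, beside the 11.7% and 9.73% of all genes given above. Of 19 vesicle proteins and transporters, 17 had a log2 change below 0 at 6 months (median -0.11) and 6 had one at 9 months (median 0.05), where 53.9% and 46.6% of all genes were below 0. Beside them, all 9 striatal markers were below 0 at 6 months (median -0.25) and all 9 above 0 at 9 months (median 0.11), and their part in these values was not tested. Of 24 postsynaptic scaffold and adhesion genes, 15 were below 0 at 6 months (median -0.01) and 18 at 9 months (median -0.06). The medians of the 15 SNARE and fusion genes, 18 active zone and Rab3 genes and 19 endocytosis genes lay between -0.01 and 0.02 at both ages. The 10 genes of the vesicle proton pump, which powers transmitter loading, had a median of 0.03 at each age.

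The smallest p at 6 months belonged to Baiap2 (IRSp53, a partner of Shank proteins and PSD-95), which lay at 70.1, 65.8 and 67.2 FPKM in APP/PS1 and at 85.5, 80.5 and 74.8 FPKM in WT (log2 change -0.24, limma adjusted p = 0.131). Camk2g, a kinase subunit, lay at 52.2, 51.0 and 51.5 FPKM in APP/PS1 and at 61.8, 54.8 and 59.6 FPKM in WT (log2 change -0.18, limma adjusted p = 0.184). At 9 months Dlgap4, a partner of PSD-95, lay at 48.4, 42.9 and 43.8 FPKM in APP/PS1 and at 53.3, 60.5 and 54.0 FPKM in WT (log2 change -0.31, limma adjusted p = 0.28). Rims4, a short relative of Rims1, lay at 19.6, 20.2 and 18.9 FPKM in APP/PS1 and at 22.8, 21.8 and 21.7 FPKM in WT at 9 months (log2 change -0.18, limma adjusted p = 0.327). The groups of each did not overlap in the comparison named, and none was called. Over both ages Baiap2 had a log2 change of -0.15 and Rims4 one of -0.16 (limma adjusted p = 0.175 for both).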

How the data were processed

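Long RNA libraries of 12 brain samples (4 groups of 3) were used. The authors deposited FPKM per transcript with gene IDs and symbols. Per the labels' protocols, Trizol extracts were prepared with the TruSeq RNA kit of Illumina. The submitters' processing notes name Bowtie 0.12.2 and build mm8 without saying what for. Neither the tool behind the FPKM values nor its annotation is given in the sources used here. Files of circRNA, lncRNA and miRNA were not used here.

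FPKM were summed per gene (22154 genes from 48717 transcripts). Depth is unknown, so no counting error or lower limit of detection could be set, and sums over transcripts depend on how the authors' tool split fragments between isoforms. A mean of 0.5 FPKM or more was required, and values were tested on log2(FPKM + 0.25) with limma 3.58.1 in R 4.3.3 (lmFit, contrasts.fit, eBayes with a trend), with 4 group means in a single model, 8 residual degrees of freedom and two-sided tests. Benjamini-Hochberg adjustment ran over all 13593 genes, or all 22322 transcripts, and calls needed an adjusted p under 0.05. Such a log2 change understates the change of low genes. Groups came from titles and characteristics. The test was checked on simulated data.

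The members and all gene lists were chosen with earlier results of these data known, so no list was tested. Values per library are given for the 4 genes of smallest p and the 2 of largest change between genotypes at each age, the 2 of smallest p elsewhere, the 2 highest and the 3 most variable, and the genes otherwise shown per library (Slc17a7, Syt1 at 9 months, Syt7 at 9 months) were added after their values were seen. All 36 gene IDs matched the reference name table. Libraries correlated at r = 0.981 to 0.989 over the genes tested, and none were identical. Promoter sequences are from RefSeq, build GRCm38.p6, and were not set against coordinates of the deposited files. The alternatives tried were a pseudocount of 1, no filter, a filter at 2 FPKM, median-ratio scaling, a replicate block, eBayes without a trend, the compared groups alone, and leaving out each library.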

Additional observations from a re-analysis of the deposited data

How the results depend on the processing

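Under each alternative, none of the 36 genes, none of their tested transcripts and none of the 105 further genes was called in the comparisons run. Median log2 changes of the 36 moved by less than the spread between libraries, for instance between -0.05 and -0.00885 at 6 months and between -0.03 and 0.00808 at 9 months. The 376 refits of named genes kept their direction and stayed above the threshold. The number of the 36 with an unadjusted p under 0.05 ran from 1 to 6 at 6 months and from 0 to 5 at 9 months. Calls over all genes, few in every comparison, were less steady, from 3 to 17 at 6 months (6 as analysed), from 5 to 17 at 9 months (13) and from 8 to 17 over both ages (16). Between ages they ran from 0 to 5 in APP/PS1 (0) and from 0 to 13 in WT (6), and for the difference between the genotype effects from 0 to 4 (1). The lowest adjusted p of a named gene was 0.0898, for Nlgn2 at 6 months without APP/PS1 1, over a range up to 0.752. Same-numbered libraries deviated together with correlations from -0.12 to 0.13, and not every library correlated best with its own number, so the numbers were not taken as pairs. With the replicate block 0 of the 36 were called in each comparison. The unknown depth and 3 libraries per group limit what could be detected, and a p above the threshold does not show that levels were equal.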
